A study of Trachinotus blochii with 22 samples.

Results

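miR-148 and miR-152 form one miRNA family, followed here in golden pompano (Trachinotus blochii) liver under changing oxygen. Golden pompano is a marine fish farmed in warm seas. Its members were taken by name as the rows called miR-148 or miR-152 after the species prefix, with any letter or arm, in the small RNA table deposited by the authors. There were 26 such rows among 2108. Rows identical in every library were counted once, which left 18 distinct rows of 1400. Of these 18 entries, 14 reached 1 CPM in at least 2 libraries and were tested, among 602 tested in all. CPM is the read count of an entry after each library is scaled to 1000000 assigned reads.

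miRNAs of this family share a seed, the stretch near the 5′ end that pairs with target messenger RNAs. Each hairpin gives a pair of strands, and the strand from its 3′ side (3p) is the one usually kept in mammals while the other (5p) is mostly lost. In mammalian liver miR-148a is an abundant hepatocyte miRNA that represses the low-density lipoprotein receptor, and family members are also known to repress DNA methyltransferase 1. In mammals miR-148a is abundant in the acinar cells of the pancreas too. miR-152 and miR-148b lie in introns of genes for coatomer zeta subunits in mammals. These roles come from other species and are given as background.

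All libraries came from liver. The groups were normoxia at 0 h (2 libraries) and at 12 h (3), hypoxia at 0 h (3) and at 12 h (3), reoxygenation that was rapid, at 3 h (3) and at 12 h (2), or gradual, at 3 h (3) and at 12 h (3). The labels give neither strain, age nor oxygen level, and they do not say when the hours start. Nor do they state whether libraries came from different animals, and the p-values cover the library-to-library spread alone, which may be technical. Table columns were tied to groups by the times and letters in their names and by the number of libraries. Normoxia and hypoxia at 12 h have the same time and number, as have rapid and gradual at 3 h. These were told apart only by the letters they share with groups placed by their number of libraries. The columns used as normoxia 0 h carry no time, so every comparison with normoxia 0 h rests on the number of libraries alone. Libraries are numbered as in the table, where normoxia 0 h has numbers 2 and 3. Libraries held 17.5 to 33.8 M assigned reads, summed over all 2108 rows, so that 1 read was worth 0.0296 to 0.0572 CPM. Identical and near-identical rows each add the same reads to this sum, so it overstates the number of distinct reads. Hepatocyte markers were high throughout, with miR-122, miR-192 and miR-194 (3 of 3 in the table) summing to 84922 to 143234 CPM per library. Library 2 of normoxia 0 h stood apart, with 40 of the 602 tested entries at least 3 times as high as in any other library, against 0 to 12 elsewhere. Bulk libraries cannot tell fewer cells of a type from less of a miRNA per cell.

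Within the family, a few rows held nearly all the signal. dre-miR-148 was the most abundant entry, at 10260.3 ± 3225 CPM (SD, n = 22), and ola-miR-148 held the same reads but for 2 of 5961619 in all. miR-148 ranked 8th and miR-152 16th among 605 names (a family number or a single predicted miRNA), each taken by its most abundant row. fru-miR-152 led miR-152 with 1819 ± 562 CPM. ssa-miR-152-3p followed it at 1572 ± 478 CPM, within 0.28 log2 units in every library. The 5p strand of miR-148, abu-miR-148a-5p, was at 569.8 ± 95.6 CPM, and that of miR-152, ssa-miR-152-5p, at 18.4 ± 5.22 CPM. The names dre-miR-148 and fru-miR-152 give no arm, and both are 3p sequences by common knowledge of these miRNAs. dre-miR-148 and fru-miR-152 together made up 0.739% to 2.36% of a library's sum over all rows, in which shared reads count in each row.

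Smaller rows made up the rest. ggo-miR-148a, a row identical to hsa-miR-148a-3p, had a median of 42.2 CPM. The 7 other tested entries had means from 0.433 CPM (gmo-miR-152-5p) to 3.23 CPM (pma-miR-152b), with ggo-miR-148b, identical to rno-miR-148b-3p, at 2.71 CPM. The 4 entries that were not tested stayed below 1 CPM in every library. Among them, bta-miR-148c, efu-miR-152, mmu-miR-152-3p and pma-miR-152a were 1 identical row with 4 reads in all 22 libraries. cli-miR-148b-3p had 3 reads. A library without a read of an entry may still hold up to 3 reads' worth, 0.0888 to 0.172 CPM, by counting error alone. Near-identical entries share reads, so the entries are not separate measurements of the family.

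The level of miR-148 overlapped between neighbouring groups when all 8 were put in order. Under normoxia at 0 h, dre-miR-148 was at 7088 CPM in library 2 and 20546 CPM in library 3, the highest value of all. Under normoxia at 12 h it was at 9329, 6916 and 13166 CPM. These normoxia libraries span most of the range seen in the study. Under hypoxia at 0 h dre-miR-148 was at 10546, 10437 and 10047 CPM, the tightest group. Under hypoxia at 12 h it was at 10158, 7501 and 6350 CPM, the last being the lowest of the values analysed. After rapid reoxygenation it was at 13561, 7723 and 11617 CPM at 3 h and at 9379.6 and 12439 CPM at 12 h. After gradual reoxygenation it was at 12902, 11826 and 8352 CPM at 3 h and at 7755, 6592 and 11497 CPM at 12 h. No group stood clear of all the others.

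By mean level, normoxia 0 h came first (13817 ± 9516 CPM, SD, n = 2), followed by gradual 3 h (11027 ± 2378, n = 3), rapid 3 h (10967 ± 2973, n = 3), rapid 12 h (10909 ± 2163, n = 2), hypoxia 0 h (10343 ± 262, n = 3), normoxia 12 h (9803 ± 3152, n = 3), gradual 12 h (8615 ± 2563, n = 3) and hypoxia 12 h (8003 ± 1953, n = 3). Every neighbouring pair in this order overlapped in its library values. The authors' deposited table gives group means of 15018 CPM for normoxia 0 h and 9053 CPM for rapid reoxygenation 12 h. Both of these include a further library not analysed here. At 9053 CPM rapid 12 h would come after normoxia 12 h, and its further library lies below every analysed one. By limma, a linear model fitted across all tested entries on log2(CPM + 1), a difference anywhere among the groups was not detected for dre-miR-148 (limma F test, adjusted p = 0.860).

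**Figure D1:**
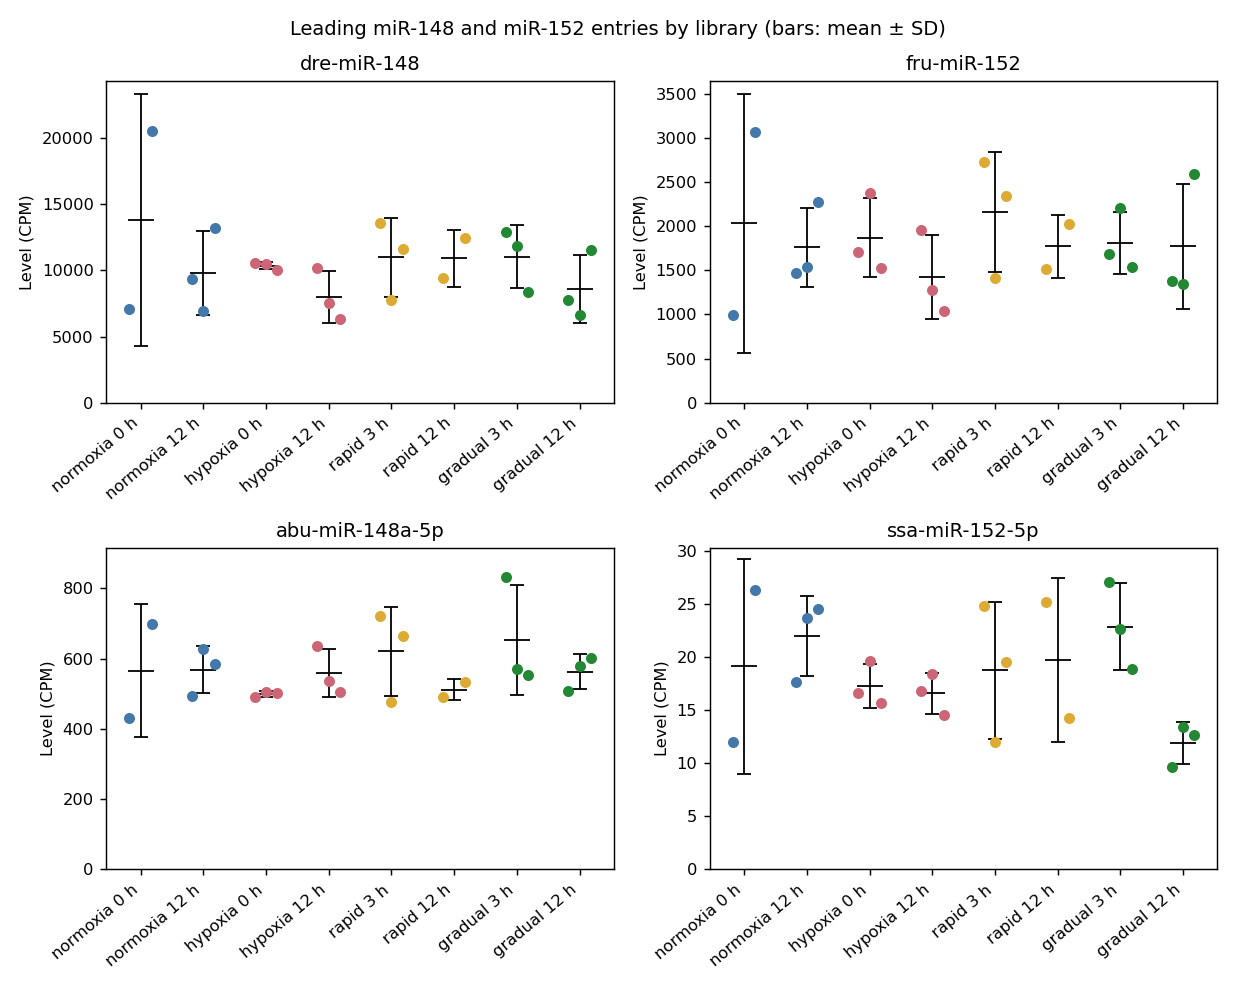
Levels in CPM (vertical axes, from 0) of the leading miR-148 and miR-152 entries in each of the 22 libraries (points), by group, with mean and SD as bars. The widest pair of libraries for dre-miR-148 and fru-miR-152 is that of normoxia 0 h, and the 3 gradual 12 h libraries of ssa-miR-152-5p lie between 9.67 and 13.4 CPM, a range that also holds a library of normoxia 0 h and one of rapid 3 h.

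miR-152 gave a like picture. fru-miR-152 was at 997 and 3069 CPM under normoxia at 0 h, again with library 3 as the highest of those analysed. Under normoxia at 12 h it was at 1473, 1538 and 2275 CPM. Under hypoxia it was at 1709.6, 2377 and 1529 CPM at 0 h and at 1962, 1276 and 1045 CPM at 12 h. In the analysed reoxygenation libraries it lay between 1346 CPM (gradual 12 h, library 2) and 2726 CPM (rapid 3 h, library 1). Its group means ran from 2161 ± 678 CPM (SD, n = 3) after rapid reoxygenation at 3 h to 1428 ± 477 CPM (n = 3) under hypoxia at 12 h, with every neighbouring pair in the order overlapping. The authors' deposited means, each with a further library, are 2491 CPM for normoxia 0 h and 1434 CPM for rapid 12 h. With these means normoxia 0 h would come first, and the further library of rapid 12 h lies below every analysed library. A difference among the 8 groups was not detected by limma (F test, adjusted p = 0.958).

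The 5p strand of miR-148 varied little over the 22 analysed libraries. abu-miR-148a-5p ranged from 432 to 832 CPM over the 22 libraries, a 1.93-fold span, against 3.24-fold for dre-miR-148. Its standard deviation on the log2 scale was 0.23, and only 3.49% of the 602 tested entries had a smaller one, while 50.0% had a smaller one than dre-miR-148 (0.42). Among the 75 tested entries of highest mean level, 64% had a smaller one than dre-miR-148. For abu-miR-148a-5p the authors' deposited mean for rapid 12 h, with a further library, is 397 CPM against 511 CPM over the 2 libraries. By that mean the further library lies below all 22, so the small spread holds only without it. The ratio of dre-miR-148 to abu-miR-148a-5p was 17.96 ± 4.28 (SD, n = 22) and ran from 11.03 in library 2 of normoxia 12 h to 29.4 in library 3 of normoxia 0 h. For miR-152 the ratio of fru-miR-152 to ssa-miR-152-5p was 102.8 ± 33.1, from 60.4 to 204. The share of 5p reads was therefore smaller for miR-152 than for miR-148 in every library.

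Hypoxia was compared with normoxia to ask whether low oxygen shifts these miRNAs. At 12 h dre-miR-148 differed by −0.27 ± 0.34 on the log2 scale (estimate ± SE, 95% interval −0.996 to 0.45, limma adjusted p = 0.997). fru-miR-152 differed by −0.33 ± 0.38 (−1.13 to 0.48, limma adjusted p = 0.997). With 1 library left out the value of dre-miR-148 ran from −0.50 (without library 2 of normoxia 12 h) to −0.03 (without library 3 of normoxia 12 h), and that of fru-miR-152 from −0.58 to −0.13 (without library 1 or 3 of hypoxia 12 h). Of the 14 tested entries, 1 was higher and 13 lower at 12 h, with a median of −0.27 against −0.01 over all 602 entries, and 0 passed the threshold of 0.05, where 0.664% of all entries did. At 0 h dre-miR-148 differed by −0.22 ± 0.39 (−1.03 to 0.59, limma adjusted p = 0.945) and fru-miR-152 by 0.07 ± 0.43 (−0.83 to 0.97, limma adjusted p = 0.971). At 0 h 5 of 14 entries were higher (median −0.12, against −0.05 over all), and 0 passed, where 0.498% of all entries did. These values at 0 h turn on the 2 normoxia libraries. Without library 3 of normoxia 0 h the change of dre-miR-148 was 0.54, without library 2 it was −0.99, and for fru-miR-152 these were 0.88 and −0.74. A change in that difference from 0 h to 12 h was tested in the same fit, and 0 of 14 entries passed (0.997% of all).

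Reoxygenation was then compared by its rate. At 3 h, gradual against rapid, dre-miR-148 differed by 0.02 ± 0.34 (−0.70 to 0.75, limma adjusted p = 0.997) and fru-miR-152 by −0.22 ± 0.38 (−1.02 to 0.59, limma adjusted p = 0.969). At 12 h dre-miR-148 differed by −0.37 ± 0.39 (−1.18 to 0.44, limma adjusted p = 0.876) and fru-miR-152 by −0.06 ± 0.43 (−0.95 to 0.84, limma adjusted p = 0.999). With 1 library left out fru-miR-152 at 3 h ran from −0.50 to −0.02 (without library 2 or 1 of rapid 3 h) and dre-miR-148 at 12 h from −0.60 to −0.16 (without library 3 of gradual 12 h or library 2 of rapid 12 h). These differences lie within the spread of the libraries. At either time 0 of 14 entries passed, and 0% of all entries passed. The sign of the value for dre-miR-148 at 3 h and of that for fru-miR-152 at both times turned under other scalings. The difference between the rates was not found to change from 3 h to 12 h in any of the 14 entries (0 passed, 0.166% of all).

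In the remaining comparisons 0 of the 14 entries passed by limma either. They were rapid 3 h and gradual 3 h with hypoxia 0 h (0% of all entries passed in each), rapid 12 h with normoxia 12 h (0%), gradual 12 h with normoxia 12 h (1.66%), rapid 12 h and gradual 12 h with hypoxia 12 h (0% in each), hypoxia 12 h with 0 h (0%), normoxia 12 h with 0 h (4.82%), rapid 12 h with 3 h (0%) and gradual 12 h with 3 h (1.83%). Several of these share a group of libraries and are not independent. The F test over the 8 groups passed for 0 of the 14, where 1.5% of all entries passed. At an unadjusted p under 0.05 stood 2 family entries in gradual 12 h against normoxia 12 h (10.6% of all entries), 1 in rapid 12 h against hypoxia 12 h (4.98%), 1 in gradual 12 h against hypoxia 12 h (9.8%), 1 in gradual against rapid at 3 h (9.47%) and 4 in gradual 12 h against 3 h (16.8%), and 0 in the other comparisons. Those entries were ggo-miR-148a and ssa-miR-152-5p, described next, and 3 rows averaging 3.23 CPM or less. These 3 rows were pma-miR-152b (rapid 12 h against hypoxia 12 h, 1.11 ± 0.50), gmo-miR-152-5p (0.54 ± 0.23 and −0.59 ± 0.23 in the last 2 comparisons) and ssa-miR-148a-5p (−0.51 ± 0.24 in the last). gmo-miR-152-5p reached 1 CPM in only 2 libraries, both of gradual 3 h, so it was tested only because it is high in that group. Both of its comparisons involve gradual 3 h. Its unadjusted p there, and its place in these counts, is partly set by the filter and is not read as a change. For pma-miR-152b the authors' deposited mean for rapid 12 h, with a further library, is 3.55 CPM against 5.07 CPM over the 2 libraries. By that mean the further library lies below every hypoxia 12 h library. edgeR's quasi-likelihood test on recovered reads called 0 family entries in the 14 comparisons of 2 groups and the 2 tests of a difference, where it called 0 to 79 of all 602 entries, and 1 in its test over the 8 groups, where it called 14.3%. DESeq2 called 1 in gradual 12 h against normoxia 12 h (3.74% of all entries with an adjusted p), against hypoxia 12 h (2.89%) and against gradual 3 h (9% of all), and 1 in its test over the 8 groups (25.3%). In each case that entry was ggo-miR-148a.

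**Figure D2:**
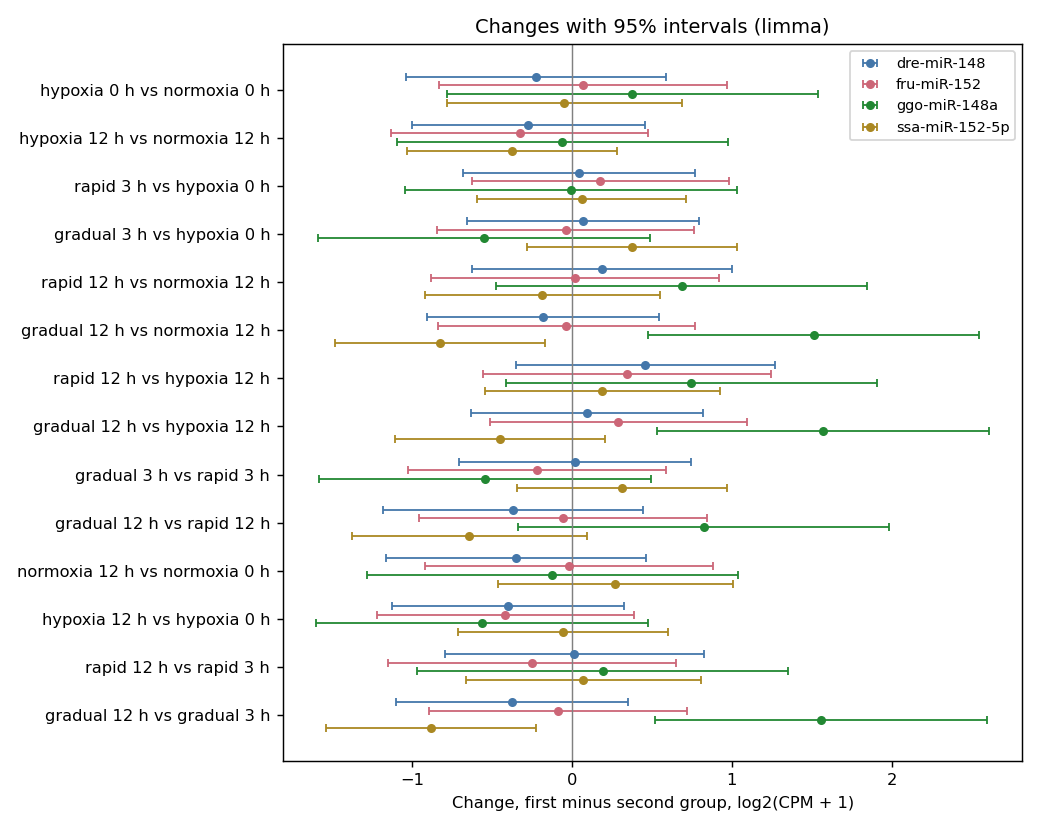
Change on the log2(CPM + 1) scale (horizontal axis, first minus second group) of 4 family entries in the 14 comparisons of 2 groups, with 95% intervals from limma. Intervals for dre-miR-148 and fru-miR-152 cross 0 in all 14, while those of ggo-miR-148a and ssa-miR-152-5p leave 0 in comparisons of gradual 12 h, with no adjusted p under 0.05.

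In gradual 12 h a pair of smaller rows had an unadjusted p under 0.05 against more than 1 group. ggo-miR-148a, the row shared with human miR-148a-3p, was at 312, 59.6 and 65.4 CPM after gradual reoxygenation at 12 h. It was at 33.3, 36.9 and 40.8 CPM under normoxia at 12 h and at 43.0, 31.8 and 32.3 CPM under hypoxia at 12 h. At 3 h of gradual reoxygenation it was at 41.1, 30.3 and 36.4 CPM. All 3 gradual 12 h libraries lay above all 9 libraries of these groups, but they overlapped hypoxia 0 h (41.3, 55.7 and 63.1 CPM) and rapid 3 h (31.4, 47.5 and 95.9 CPM). Library 1 lay far above the rest of the study, whose next value was 95.9 CPM (rapid 3 h, library 3).

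On the log2 scale ggo-miR-148a differed by 1.51 ± 0.49 from normoxia 12 h (limma adjusted p = 0.20), by 1.57 ± 0.49 from hypoxia 12 h (adjusted p = 0.401) and by 1.56 ± 0.49 from gradual 3 h (adjusted p = 0.0923), and none passed by limma. DESeq2 on the recovered reads called all 3 (log2 changes 2.10, 2.14 and 2.16, adjusted p = 0.00797, 0.00311 and 0.00271), and edgeR called none of them (adjusted p = 0.0886, 0.0845 and 0.0642). Without library 1 of gradual 12 h, an alternative added after seeing the data, DESeq2 called none of the 3 (changes 0.91, 0.95 and 0.96, adjusted p = 0.312, 0.259 and 0.173) and limma gave 0.74, 0.80 and 0.79. Over all alternatives the adjusted p ran from 0.00797 to 0.783 against normoxia 12 h, from 0.00311 to 0.923 against hypoxia 12 h and from 0.00271 to 0.402 against gradual 3 h. Against rapid 12 h, at 57.4 and 62.7 CPM, the groups overlapped (0.82 ± 0.55, limma adjusted p = 0.805, and 0.06 without library 1). The authors' deposited mean of ggo-miR-148a for rapid 12 h, with a further library, is 47.1 CPM against 60.1 CPM over the 2 libraries. By that mean the further library lies below every analysed library, so these differences from rapid 12 h hold only without it.

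**Figure D3:**
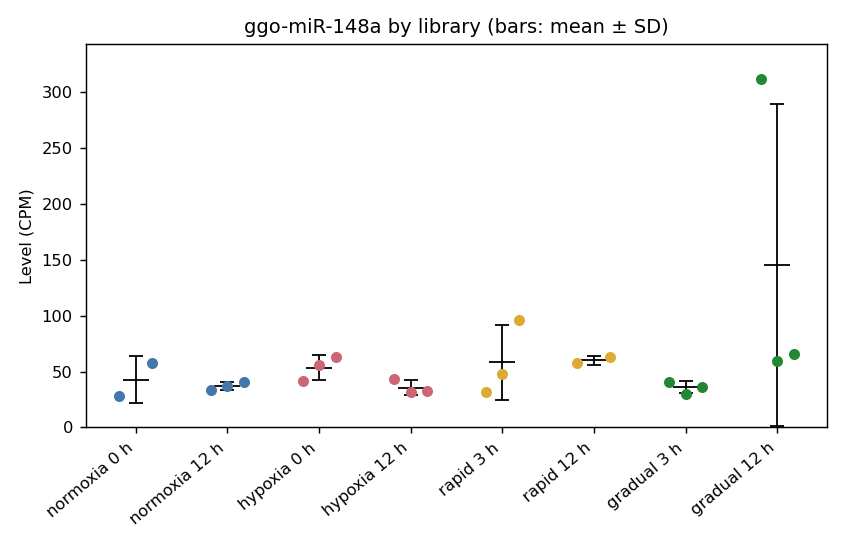
Level of ggo-miR-148a in CPM (vertical axis, from 0) in each library (points), by group, with mean and SD as bars. Library 1 of gradual 12 h, at 312 CPM, stands apart from the other 21, which lie between 27.9 and 95.9 CPM.

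The main miR-148 row did not share this. In library 1 of gradual 12 h dre-miR-148 was at 7755 CPM, within the range of the other libraries, and it exceeded ggo-miR-148a 24.8-fold there, against 110.6-fold and 176-fold in libraries 2 and 3 of that group. That library also had the fewest assigned reads, 17.5 M, and 12 of 602 entries were at least 3 times as high in it as in any other library. Of these 12, 8 were rows of the neural miRNA miR-9, several of them near-identical (rno-miR-9b-3p was at 324 against at most 28.9 CPM elsewhere). The 4 others were ggo-miR-148a itself, hsa-miR-139-5p (34.5 against 3.72), gga-let-7g-5p (142.2 against 36.2) and mmu-miR-101b-3p (8.58 against 2.70). Their part in the value of ggo-miR-148a was not tested.

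ssa-miR-152-5p, the strand of miR-152 that is mostly lost, had its lowest group mean after gradual reoxygenation at 12 h, with libraries at 9.67, 13.4 and 12.7 CPM. It was at 17.6, 23.7 and 24.5 CPM under normoxia at 12 h and at 26.995, 22.6 and 18.8 CPM at 3 h of gradual reoxygenation. Hypoxia 12 h stood at 16.8, 18.4 and 14.5 CPM, and rapid 12 h at 25.2 and 14.2 CPM. The gradual 12 h libraries lay below every analysed library of these 4 groups, by a small margin for rapid 12 h. They overlapped normoxia 0 h (11.95 and 26.3 CPM) and rapid 3 h (24.8, 11.95 and 19.5 CPM), and lay below hypoxia 0 h (16.6, 19.6 and 15.6 CPM). The differences were −0.88 ± 0.31 from gradual 3 h (limma adjusted p = 0.147), −0.83 ± 0.31 from normoxia 12 h (adjusted p = 0.289), −0.45 ± 0.31 from hypoxia 12 h (adjusted p = 0.712) and −0.64 ± 0.35 from rapid 12 h (adjusted p = 0.789), and none passed. The value against rapid 12 h was −1.03 without library 2 of rapid 12 h and −0.25 without library 1. The authors' deposited mean for rapid 12 h, with its additional library, is 15.7 CPM against 19.7 CPM over the 2 libraries. By that mean the additional library lies below all 3 gradual 12 h libraries, so the separation from rapid 12 h holds only without it. With 169 to 787 reads per library, this entry rests on far fewer reads than fru-miR-152, which was at 1377, 1346 and 2589.9 CPM in gradual 12 h and overlapped each of these 4 groups. Erythroid markers (miR-144 and miR-451, 2 of 2 in the table, neither at 0) also differed between some of these groups. They summed to 863 to 4501 CPM in gradual 12 h, 9458 to 12791 CPM in gradual 3 h and 7175 to 13971 CPM in normoxia 12 h. In hypoxia 12 h (2534 to 4031 CPM) and rapid 12 h (1991 to 2872 CPM) these markers lay within the range of gradual 12 h. Their part in the values of ssa-miR-152-5p and ggo-miR-148a was not tested. The ratio of fru-miR-152 to ssa-miR-152-5p was 149 ± 52.3 in gradual 12 h (n = 3), against 80.6 ± 17.5 at 3 h of gradual reoxygenation and 80.5 ± 14.2 under normoxia at 12 h. In each of the other groups it overlapped gradual 12 h, whose libraries ran from 100 to 204. Mean ratios of those other groups ran from 86.1 (hypoxia 12 h) to 116 (rapid 3 h).

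Groups without overlap are common among all entries, and the family's counts are read against that background. Groups did not overlap for 4 of the 14 entries in gradual 12 h against normoxia 12 h, where 21.3% of all entries did not, for 3 against hypoxia 12 h (23.8%), for 2 against rapid 12 h (20.8%) and for 2 against gradual 3 h (29.6%). The 2 analysed rapid 12 h libraries gave 4 entries against normoxia 12 h (17.8% of all) and 4 against hypoxia 12 h (22.9%). ggo-miR-148a was among them in both (0.69 ± 0.55 and 0.75 ± 0.55, limma adjusted p = 0.977 and 0.978). By the authors' mean for rapid 12 h, its separation holds only without the further library. In gradual 3 h against hypoxia 0 h the groups did not overlap for 2 entries (31.6%), ggo-miR-148a, which was lower (−0.55 ± 0.49, limma adjusted p = 0.624), and abu-miR-148a-5p. The latter was at 832, 569.7 and 554 CPM after gradual reoxygenation at 3 h and at 490.4, 505 and 502 CPM under hypoxia at 0 h, a difference of 0.36 ± 0.21 that did not pass (limma adjusted p = 0.443) and was 0.17 without library 1 of gradual 3 h.

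miR-148 and miR-152 were high and low in the same libraries. On the log2 scale dre-miR-148 and fru-miR-152 had a Pearson r of 0.87 and a Spearman rho of 0.86 over the 22 libraries (permutation p = 1e-05 for each, two-sided, the smallest that 100000 permutations can give, and 3e-05 adjusted over 3 relations). Without the 2 libraries farthest from the median (library 3 of normoxia 0 h and library 3 of hypoxia 12 h) r was 0.82, and with group means removed it was 0.91. The ratio of dre-miR-148 to fru-miR-152 stayed between 4.39 and 7.63. Rows taken by name as opposite strands were less alike, and whether they come from one pompano hairpin was not tested. For dre-miR-148 and abu-miR-148a-5p r was 0.57 and rho 0.51 (permutation p = 0.00572 and 0.0163, adjusted 0.00858 and 0.0163), with r at 0.49 without the 2 farthest and 0.72 within groups. For fru-miR-152 and ssa-miR-152-5p r was 0.49 and rho 0.52 (permutation p = 0.0215 and 0.0148, adjusted 0.0215 and 0.0163), 0.35 without the 2 farthest and 0.63 within groups. All values of a library share its scaling, and reads that match both a miR-148 and a miR-152 entry would count in each.

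**Figure D4:**
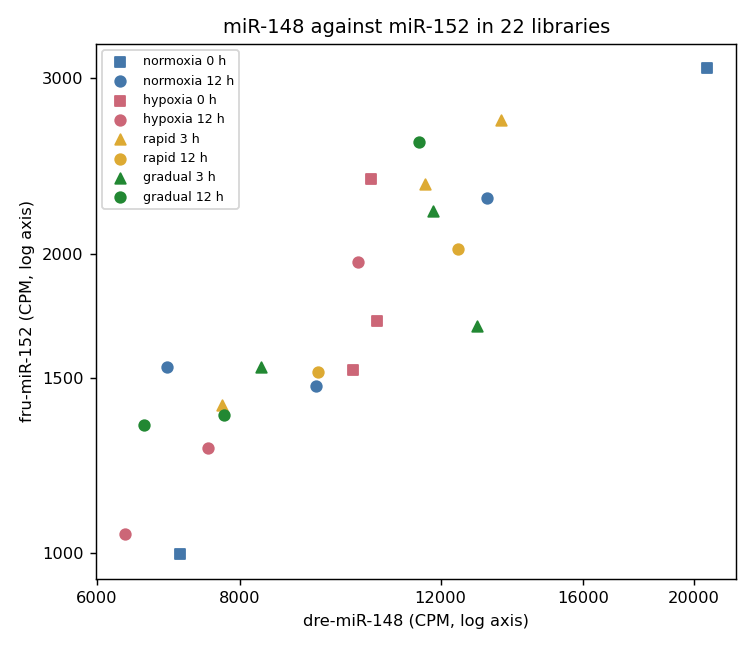
fru-miR-152 against dre-miR-148 in CPM on log axes, 1 point per library, coloured by treatment and shaped by time. Points rise together (Pearson r = 0.87), and normoxia 0 h holds both the highest library (20546 and 3069 CPM) and one of the lowest (7088 and 997 CPM).

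Outside the family, the 5 names whose levels were most like dre-miR-148 over the 22 libraries were the predicted novel_68 (Pearson r = 0.71), miR-107 (0.67), miR-338 (0.64), miR-126 (0.60) and miR-722 (0.58), of 88 names with a row of at least 10 CPM on average. miR-107 lies in an intron of a pantothenate kinase gene in mammals and is tied to lipid metabolism, and miR-126 marks endothelium. With group means removed r was 0.79, 0.92, 0.69, 0.78 and 0.81. Against fru-miR-152 the same measure put miR-107 first, at 0.69. These are descriptions over libraries that share their scaling.

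Markers of other cells were set beside the family. miR-216 and miR-217 (2 of 2 in the table), markers of pancreatic acinar cells, summed to only 32.5 CPM in library 1 of rapid 12 h and 38.3 CPM in library 1 of gradual 3 h, against 467 to 4316 CPM in the others, and neither was at 0 in all libraries of a group. In those libraries dre-miR-148 was at 9379.6 and 12902 CPM, within the range of the other libraries. In gradual 12 h the acinar sum was 4316, 3310.1 and 1340.5 CPM, highest in library 1, where ggo-miR-148a was highest. Libraries 2 and 3 of that group went the other way, with ggo-miR-148a at 59.6 and 65.4 CPM. In normoxia 0 h the acinar sum was 4115 and 4261 CPM, with ggo-miR-148a at 27.9 and 57.7 CPM. The part of acinar cells in the values of ggo-miR-148a was not tested. The endothelial marker miR-126 ran from 2434 to 5240 CPM, lowest in library 2 of normoxia 0 h. That library had the highest epithelial (15249 CPM), stromal and smooth muscle (66501 CPM) and striated muscle (477 CPM) marker sums. Next came library 1 of hypoxia 0 h, at 2889.5, 36708 and 195 CPM. The hepatocyte sum was also highest in library 2 of normoxia 0 h, at 143234 CPM. That sum pools miR-122, miR-192 and miR-194, and miR-122 alone was lower at normoxia 0 h than at 12 h, as given below. In library 2 of normoxia 0 h dre-miR-148 was at 7088 CPM and fru-miR-152 at 997 CPM. The part of these cells in those values was not tested.

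Few other miRNAs with roles like those of this family passed the test. Of a list of miRNAs tied to liver lipid metabolism, 13 of 14 were tested, and over the 14 comparisons of 2 groups 1 passed by limma in 1 comparison, miR-122, the main hepatocyte miRNA, which rose by 0.84 ± 0.21 at normoxia 12 h against 0 h (adjusted p = 0.0251), where 4.82% of all entries passed. At hypoxia 12 h against normoxia 12 h 9 of the 13 were higher, with a median of 0.09 (−0.01 over all entries). Of a list of miRNAs known in mammals to target DNA methyltransferases, which includes miR-148 and miR-152, 6 of 7 were tested and 1 passed in 1 comparison, miR-143, a smooth muscle miRNA, which fell by 1.46 ± 0.34 in the same comparison, normoxia 12 h against 0 h (adjusted p = 0.0226, 4.82% of all entries). In that list 1 of 6 was higher at hypoxia 12 h against normoxia 12 h (median −0.24, against −0.01 over all entries). miR-148 and miR-152 are among these 6 and were lower there, so this median partly restates the family's own values. The comparison that gave both calls rests on the 2 libraries of normoxia 0 h, which differ widely. Stromal and smooth muscle markers, which include miR-143, summed to 66501 CPM in library 2 and 28465 CPM in library 3 of that group. The part of cell make-up in these calls was not tested.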

How the data were processed

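Small RNA from liver was sequenced in single-end reads of 50 bases, per the labels' protocols. Per the submitters' processing notes Bowtie was used with a version not given in the sources used here; neither are its reference and the read counter. The authors deposited 1 table of 22 library columns and 8 columns of group means. Its values are CPM made by the authors, although the table's name says TPM. Each column has the same sum, and 100% of a library's values came out as whole reads (tolerance 0.01), which were recovered. No miRNA sequences were used.

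A single limma 3.58.1 fit (R 4.3.3) with its trend option on log2(CPM + 1) took in the 8 groups and the 602 entries that reached 1 CPM in 2 or more libraries. Benjamini-Hochberg adjustment ran over these 602, with a threshold of 0.05. A change on this scale is understated for low entries. edgeR 4.0.16 and DESeq2 1.42.0 were run on recovered reads as alternatives, beside other pseudocounts, filters and scalings, a replicate block and leaving out each library. Scripts were tested on simulated data. Figures used matplotlib 3.10.9 in Python 3.11.15, and the seed was 101. The most abundant row stands for each arm of miR-148 and of miR-152, every other row of the family is accounted for, and the 5 names most like dre-miR-148 are given. ggo-miR-148a was followed through the alternatives after its values were seen. The members, lists and rules were chosen with earlier results of these data known. Of the 8 deposited means, 6 equal those of their libraries, and those of normoxia 0 h and rapid 12 h include a further library, not analysed here.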

Additional observations from a re-analysis of the deposited data

How the results depend on the processing

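Of 320 recounts of family entries called, 315 gave 0, as reported. The 5 others gave 1, always ggo-miR-148a, with DESeq2 in gradual 12 h against normoxia 12 h, hypoxia 12 h and gradual 3 h and in the test over 8 groups, and with edgeR in the test over 8 groups. Every fit with 1 library left out gave 0, and without library 1 of gradual 12 h DESeq2 and edgeR also gave 0 in comparisons of that group.

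Values near 0 turned sign, and the cause was not tested. dre-miR-148 in hypoxia against normoxia at 0 h was 0.0402 on the sum without miR-122 and 0.12 under quantile normalization, and −0.99 to 0.54 when 1 library was left out. In gradual against rapid at 3 h it was −0.0871 with TMM factors, −0.0322 under quantile normalization, −0.0256 with DESeq2 and −0.21 to 0.21 with 1 library left out. fru-miR-152 in hypoxia against normoxia at 0 h was −0.0366 with edgeR, −0.0376 with DESeq2 and −0.74 to 0.88 with 1 library left out. In gradual against rapid at 3 h it was 0.12 under quantile normalization. At 12 h it was 0.22 with TMM factors, 0.0850 with edgeR, 0.18 with DESeq2 and −0.36 to 0.15 with 1 library left out, and without library 1 of gradual 12 h it was 0.22 with edgeR and 0.33 with DESeq2. For ggo-miR-148a and ssa-miR-152-5p no alternative run turned the sign in the 4 comparisons of gradual 12 h. Of the other changes of the leading entries, 49 of 693 values turned sign, and 86 of 434 with 1 library left out.

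The replicate numbers do not pair the libraries: of 70 pairs with the same number, 15 had deviations correlated over 0.1 (median r −0.06). With the replicate block 0 family entries were called in any comparison. Over all entries the block gave 0 calls against 3 without it in hypoxia against normoxia at 0 h, 0 against 10 in gradual 12 h against normoxia 12 h and 5 against 11 in gradual 12 h against 3 h.

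Counts over all entries depended on the tool and the scaling. From limma's 29 in normoxia 12 h against 0 h they ran from 3 (only these groups fitted) to 97 (DESeq2). From 11 in gradual 12 h against 3 h they ran from 0 (edgeR) to 53 (DESeq2). From 10 in gradual 12 h against normoxia 12 h they ran from 0 to 22 (DESeq2). That 0 came with edgeR and with limma under TMM factors, quantile normalization, no filter on low values, the block or only these groups fitted. From 3 in hypoxia against normoxia at 0 h they ran from 0 (block, pseudocount 10 or only these groups fitted) to 43 (DESeq2). From 9 in the test over 8 groups they rose to 86 (edgeR) and 149 (DESeq2). Groups of 2 or 3 libraries limit the detectable size of a change.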
